A study of Mus musculus with 3 samples.

Results

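The cells described here are the pericyte-like cells of mouse fracture callus, chosen by their content of *Rgs5*, which encodes a regulator of G-protein signalling and is a widely used pericyte marker. Among cells with 500 to 5000 detected genes, at most 10% mitochondrial UMIs, at most 5% hemoglobin UMIs and no UMI of *Ptprc* (the CD45 gene), those with at least 20 *Rgs5* UMIs per 10000 UMIs were kept. A UMI is a molecular tag that marks 1 captured RNA molecule. The rule kept 71 of 6587 such cells at day 10 and 200 of 9680 at day 14, 271 in all, and set them against the other 15996 cells of the same 2 libraries.

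The callus came from C57BL/6 mice with a femoral fracture and no treatment. Day 7, day 10 and day 14 after fracture were each measured as 1 library of 10x 3' single-cell RNA-seq, with no second library of any day. The callus was cleaned of marrow and digested with collagenase, and live cells without CD31, CD45 or TER119 on their surface were sorted, a gate meant to leave out endothelial and blood cells. The labels give neither the age nor the number of animals, and both sexes were used in the study.

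Pericytes wrap capillaries and small venules and share a basement membrane with the endothelium. Endothelial cells recruit them through PDGF-B, which is read by PDGFRB on the pericyte, and Notch signalling, mainly through NOTCH3, keeps their mural identity. They grade into the smooth muscle cells of arterioles, which carry more of the contractile proteins such as smooth muscle myosin (*Myh11*), and in bone the perivascular wall has been examined as a home of skeletal progenitors.

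With 1 library per day, cells are not replicates, and no p-value is given. Levels are UMIs summed over all cells of a group per 1000000 UMIs of that group (counts per 1000000, CPM), their 95% intervals are exact and cover counting error only, and day and library cannot be told apart. A gene was called higher or lower when its levels differed at least 2-fold, a log2 ratio of at least 1, in the same direction in both libraries.

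The promoter windows of a pair of genes are shown because both are among the pericyte markers that were set beside the selection. *Kcnj8* and *Abcc9* encode the pore and the sulfonylurea receptor of the vascular ATP-sensitive potassium channel, lie 16247 bases apart on chromosome 6 (chr6:142564837-142571614 and chr6:142587862-142702315, both on the minus strand, GRCm38) and were both high in these cells. Each window is 270 bases of the RefSeq sequence of GRCm38.p6, 250 before the RefSeq start of the gene and 20 from it on. It is printed 5′ to 3′ on the strand of the gene. The gene spans above are from GENCODE M21, whose start of *Abcc9* differs from the RefSeq start. Capitals mark TGGGAA, the core of the motif read by RBPJ, the DNA-binding partner of Notch. The windows lie at chr6:142571595-142571864 (*Kcnj8*) and chr6:142702255-142702524 (*Abcc9*), both on the minus strand.
Kcnj8: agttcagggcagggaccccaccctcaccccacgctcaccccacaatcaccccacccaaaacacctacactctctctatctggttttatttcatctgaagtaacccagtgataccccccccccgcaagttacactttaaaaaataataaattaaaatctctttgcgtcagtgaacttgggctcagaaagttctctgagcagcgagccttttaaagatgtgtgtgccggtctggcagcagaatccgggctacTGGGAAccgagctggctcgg
Abcc9: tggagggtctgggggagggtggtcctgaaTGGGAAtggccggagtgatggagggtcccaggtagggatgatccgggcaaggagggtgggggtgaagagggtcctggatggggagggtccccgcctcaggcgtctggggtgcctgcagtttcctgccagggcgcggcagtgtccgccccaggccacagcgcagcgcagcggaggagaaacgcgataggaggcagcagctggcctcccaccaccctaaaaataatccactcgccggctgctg

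TGGGAA and the CArG box, read by serum response factor, were searched on both strands, and overlaps between them were not removed. The first was in 23.1% of all 32851 windows, in 2 of the 3 windows found for the 4 pericyte markers and in 4 of 13 for the Notch list. The CArG box was in 1.53% of all windows and in 3 of the 20 found for the contractile list, those of *Myl9*, *Srf* and *Myl6*. A match describes these letters and no more.

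The selected cells made up 1.08% (95% interval 0.843 to 1.36) of the *Ptprc*-negative cells at day 10 and 2.07% (1.79 to 2.37) at day 14. At day 7, when 447 of 7017 cells within the limits were without *Ptprc*, none reached the *Rgs5* limit, for which the upper end of the same interval was 0.822% (0.671% by a limit of 3 counts in 447 cells). Within the selection *Rgs5* ran from 21.5 UMIs per 10000 to a median of 104 and a maximum of 234 at day 10, and from 21.5 to 105 and 409 at day 14. The 3 cells just inside the limit held 21.5, 26.9 and 29.3 at day 10 and the 3 just outside held 19.1, 15.9 and 14.9. At day 14 the values were 21.5, 22.1 and 24.3 inside and 19.6, 19.6 and 19.3 outside.

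Selected cells were shallower than the others, with a median of 12529 against 17426.5 UMIs at day 10 and 9262.5 against 15966.5 at day 14. The libraries shared 29 (day 7 and 10), 42 (day 7 and 14) and 35 (day 10 and 14) cell barcodes, and no barcode was selected in both days. Cells that passed the *Rgs5* limit but were left out numbered 8 over the gene limit at day 10, and 10 over the gene limit and 8 with *Ptprc* at day 14. No doublet caller was run. A set of 3 selected cells at day 10 and 18 at day 14 (9%) held at least 50 UMIs per 10000 of the cartilage or of the bone list. They are called mixed cells here, and several results that rest on them are given with and without them. Their median depth was 1226 UMIs at day 10 and 19021.5 at day 14.

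The pericyte label was set beside 4 markers that the rule did not use, and all 4 were far higher in the selected cells. These markers were chosen with earlier results of these data known, so their levels describe the cells and are no independent check. *Mcam* (chr9:44134469-44142727, GRCm38), which encodes the adhesion molecule CD146, was at 380 CPM (342 to 422) at day 10 and 277 (255 to 300) at day 14, against 2.02 and 1.52 in the other cells. *Higd1b* (chr11:102835849-102838040), a hypoxia-inducible domain family gene of mitochondria, was at 442 and 409 CPM against 0.133 and 0.12. The channel pore *Kcnj8* was at 157 and 228 against 0.213 and 0.253, and its partner *Abcc9* at 297 and 306 against 0.817 and 0.871. The median log2 ratio of the 4 was 9.01 at day 10 and 9.14 at day 14, and the median over all genes tested was 0.19 at both days.

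**Figure D1:**
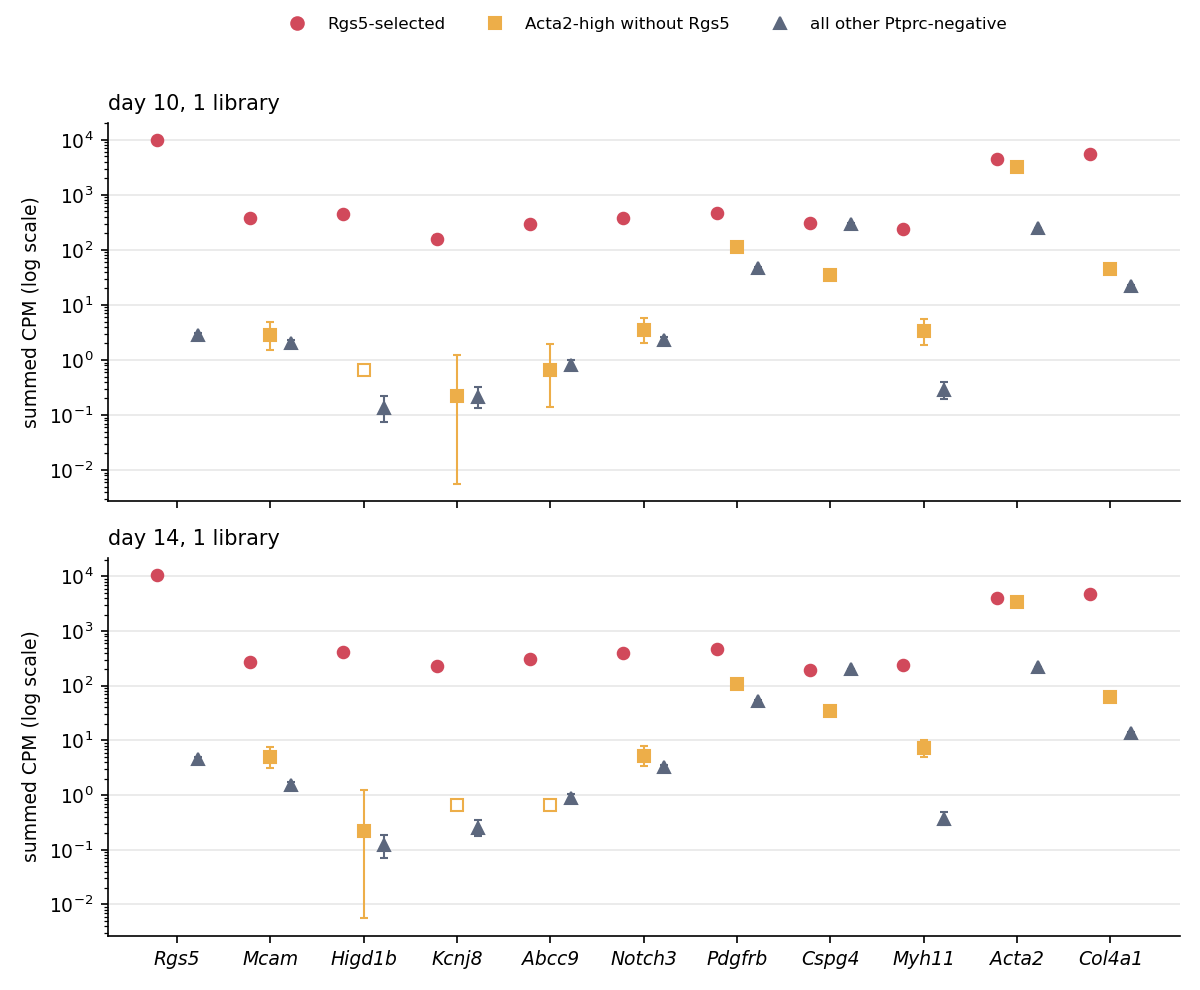
Summed CPM (log axis) of *Rgs5*, which chose the cells, and of 10 other genes in the Rgs5-selected cells (circles), in cells high in *Acta2* without *Rgs5* (squares) and in all other *Ptprc*-negative cells (triangles), 1 library per panel, with bars for the exact 95% interval and open symbols at the limit of 3 counts where no UMI was found. *Mcam*, *Higd1b*, *Kcnj8*, *Abcc9*, *Notch3*, *Myh11* and *Col4a1* sit far above both other groups on both days, *Acta2* is about level with the Acta2-high cells, and *Cspg4* is level with the other cells.

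Most selected cells held several of these markers. All 4 were seen in 37 of 71 cells (52.1%) at day 10 and 77 of 200 (38.5%) at day 14, and none in 1 and 2 cells. *Mcam* was seen in 90.1% and 78.5% of the selected cells, *Abcc9* in 87.3% and 83.5%, *Higd1b* in 84.5% and 75.5% and *Kcnj8* in 66.2% and 67.5%. In leukocytes of the same libraries, which should lack these genes (at least 2 *Ptprc* UMIs and no *Rgs5*, 4 cells at day 10 and 108 at day 14, median depth 5679 and 8080.5 UMIs), *Mcam* was seen in 0% and 2.78%, and *Higd1b*, *Kcnj8* and *Abcc9* in none. With every cell thinned to 3000 UMIs, all 4 markers were left in 6 of 69 cells (8.70%) at day 10 and 17 of 192 (8.85%) at day 14, and 2 and 8 cells were too shallow to enter.

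Few cells stood just under the *Rgs5* limit of the rule, and the share with several markers rose across it. Cells with at least 2 of the 4 markers made up 83.3% of the 12 cells at 20 to 50 *Rgs5* UMIs per 10000 at day 10 and 84.8% of the 33 at day 14. Just under the limit, at 10 to 20, they made up 40% of 5 cells and 33.3% of 15. Among cells without any *Rgs5* UMI the share was 0.0628% at day 10 and 0.0765% at day 14.

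**Figure D2:**
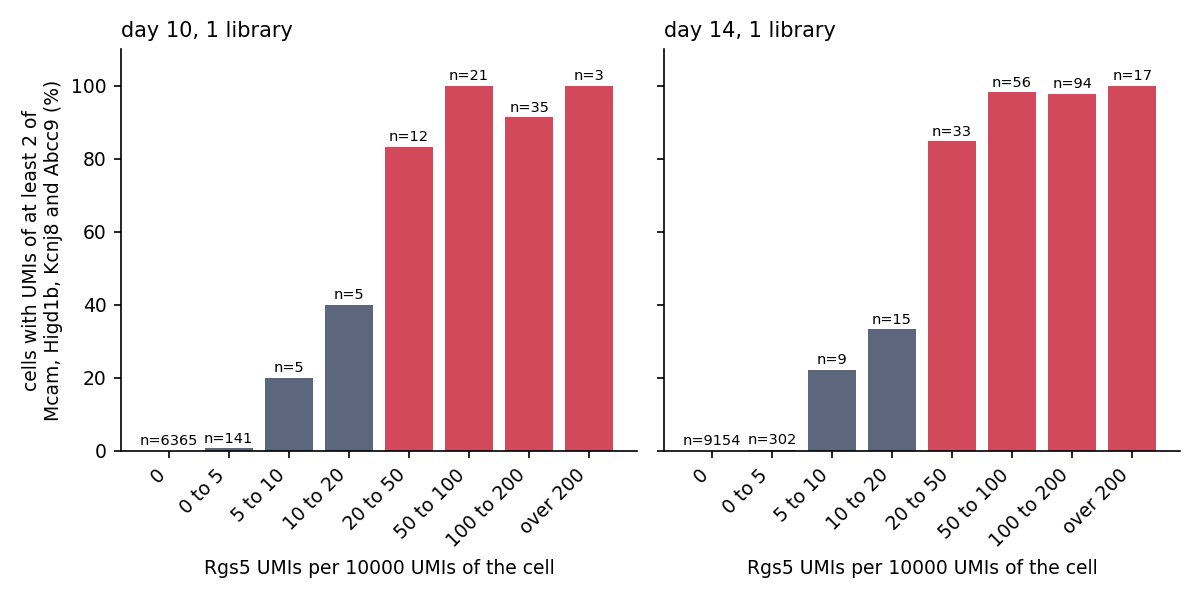
Share of cells (%) with UMIs of at least 2 of *Mcam*, *Higd1b*, *Kcnj8* and *Abcc9*, by the cell's *Rgs5* UMIs per 10000 UMIs, 1 library per panel, with red bars for bins inside the selection and n for the number of cells. The share climbs from 0.0628% and 0.0765% without *Rgs5* to at least 83.3% in every bin above the limit.

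Of 7508 genes with at least 10 CPM in the mean of the 2 groups in both libraries, 795 (10.6%) were called higher in the selected cells than in all others and 510 (6.79%) lower. *Rgs5* chose the cells, so these counts and the values that follow describe the selection and test nothing. Cells high in the contractile gene *Acta2* were set beside the selected cells. They were 258 and 285 cells with at least 20 *Acta2* UMIs per 10000 and no *Rgs5* (Acta2-high cells, median depth 17856.5 and 17074 UMIs). Over these, 579 of 7529 genes (7.69%) were called higher and 433 (5.75%) lower. Over the 17 and 39 cells with at least 20 *Cxcl12* UMIs per 10000 and no *Rgs5* (Cxcl12-high cells), 434 of 7404 (5.86%) were called higher and 504 (6.81%) lower.

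Of 23 tested genes of the mural list, 19 were called higher than in the other cells and none lower, with a median log2 ratio of 3.87 at day 10 and 3.60 at day 14. *Pdgfrb*, the receptor for endothelial PDGF-B, was at 460 and 469 CPM against 47.0 and 52.6, a log2 ratio of 3.29 (3.15 to 3.43) and 3.16 (3.06 to 3.25). *Vtn*, encoding vitronectin, *Gja4*, encoding the gap junction protein connexin 37, and the transcription factors *Ebf1*, *Foxs1* and *Nr2f2* were among the others called. *Gja4* stood at 86.3 and 82.5 CPM against 0.40 and 0.146 in the other cells.

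RNA of *Cspg4*, the gene of the classical pericyte proteoglycan NG2, did not set the selection apart from all other cells together. It stood at 303 and 196 CPM in the selected cells and at 299 and 198 in the others, log2 ratios of 0.02 (-0.16 to 0.18) and -0.02 (-0.16 to 0.12). *Cspg4* is also known from chondrocytes. Against the Acta2-high cells, at 34.9 and 35.2, its log2 ratio was 3.12 and 2.48. The aminopeptidase gene *Anpep* and the transcription factor gene *Tbx18*, also used as pericyte markers, had log2 ratios of 0.99 and 0.01, and of 0.72 and 0.86, and were not called.

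The Notch list showed receptor, ligand and target genes together. Of its 17 genes 9 were tested, of which 6 were called higher (*Notch3*, *Notch1*, *Jag1*, *Hes1*, *Heyl* and *Nrarp*) and 1, *Notch2*, lower. The receptor *Notch3* was at 374 and 397 CPM against 2.34 and 3.32 in the other cells and 3.56 and 5.25 in the Acta2-high cells. The target genes *Heyl*, a transcriptional repressor, and *Nrarp*, a feedback inhibitor, had log2 ratios of 6.75 and 6.12, and of 9.02 and 7.88. The DNA-binding partner *Rbpj* had -0.31 and -0.44, and the endothelial ligand *Dll4* had no UMI in any selected cell. Over the Cxcl12-high cells 5 of 11 Notch genes were called higher and 3 lower, with medians of -0.15 and 0.46.

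Among 14 tested genes of the PDGF, angiopoietin and VEGF pathways, 7 were called higher and 3 lower. The ligands *Angpt2*, a destabilising angiopoietin, and *Pgf*, placental growth factor, had log2 ratios of 5.82 and 5.90, and of 5.61 and 4.77. *Flt1*, the VEGF receptor that acts largely as a decoy, was at 125 and 90.4 CPM against 0.63 and 0.765. *Vegfa* itself was called lower (-1.33 and -1.27), as was *Pdgfra*, the receptor gene of fibroblasts and skeletal progenitors, at 1.07 and 6.99 CPM with log2 ratios of -5.00 (-10.30 to -2.52, 1 UMI) and -2.56. The angiopoietin receptor gene *Tek* had no UMI in the selection. Over the Cxcl12-high cells 4 of the 14 were called higher and 4 lower.

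Most tested genes of vascular tone were high over both the other cells and the Acta2-high cells. Of 35 listed receptors, cGMP enzymes and ion channels, 21 were tested against the other cells. There 17 were called higher and 2 lower, with medians of 4.85 and 4.31. Over the Acta2-high cells 16 of 19 tested were called higher and 1 lower, with medians of 5.94 and 4.93. Both subunits of the nitric oxide receptor, *Gucy1a1* (218 and 231 CPM) and *Gucy1b1* (188 and 173), had log2 ratios over the other cells of 7.01 and 6.57, and of 8.72 and 8.36. The endothelin receptors *Ednra* (198 and 190) and *Ednrb* (115 and 41.0), the angiotensin receptor *Agtr1a* (23.4 and 43.4) and the adrenoceptor *Adra2a* (114 and 114) were called as well. *Agtr1a* was at 0.40 and 0.446 CPM in the other cells, and such genes could be tested only because they were high in the selection.

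The 2 subunits of the large-conductance calcium-activated potassium channel parted. The smooth muscle beta subunit *Kcnmb1* was called higher, at 42.6 and 20.05 CPM with log2 ratios of 8.77 and 9.56. The pore subunit *Kcnma1* was called lower, at 3.20 and 7.46 CPM against 88.0 and 80.7, log2 ratios of -4.78 (-7.06 to -3.24) and -3.44 (-4.24 to -2.74). Another potassium channel pore among the leading genes was the tandem-pore channel *Kcnk3*, at 43.7 and 30.3.

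Within the RGS family, 3 of 8 tested genes were called higher and 1 lower. *Rgs4*, which neighbours *Rgs5* on chromosome 1 with 45663 bases between the genes (*Rgs5* at chr1:169655501-169695813, GRCm38), had log2 ratios of 2.03 and 2.05. *Rgs16* had 2.97 and 3.06, *Rgs7bp*, which encodes a binding protein of RGS7 family members, 4.26 and 5.57, and *Rgs3* was called lower at -1.33 and -1.14.

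Paralogs of the respiratory chain split. *Ndufa4l2*, *Cox4i2* and *Higd1b* were called higher with *Cox6b2*, 4 of 12 tested, while *Ndufa4* (-1.13 and -1.36) and *Higd1a* (-1.88 and -1.64), the paralogs of *Ndufa4l2* and *Higd1b*, were called lower. *Ndufa4l2* was at 1134 and 1289 CPM against 254 and 297. *Cox4i1*, the ubiquitous form of the complex IV subunit, had log2 ratios of 0.45 and 0.40.

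**Figure D3:**
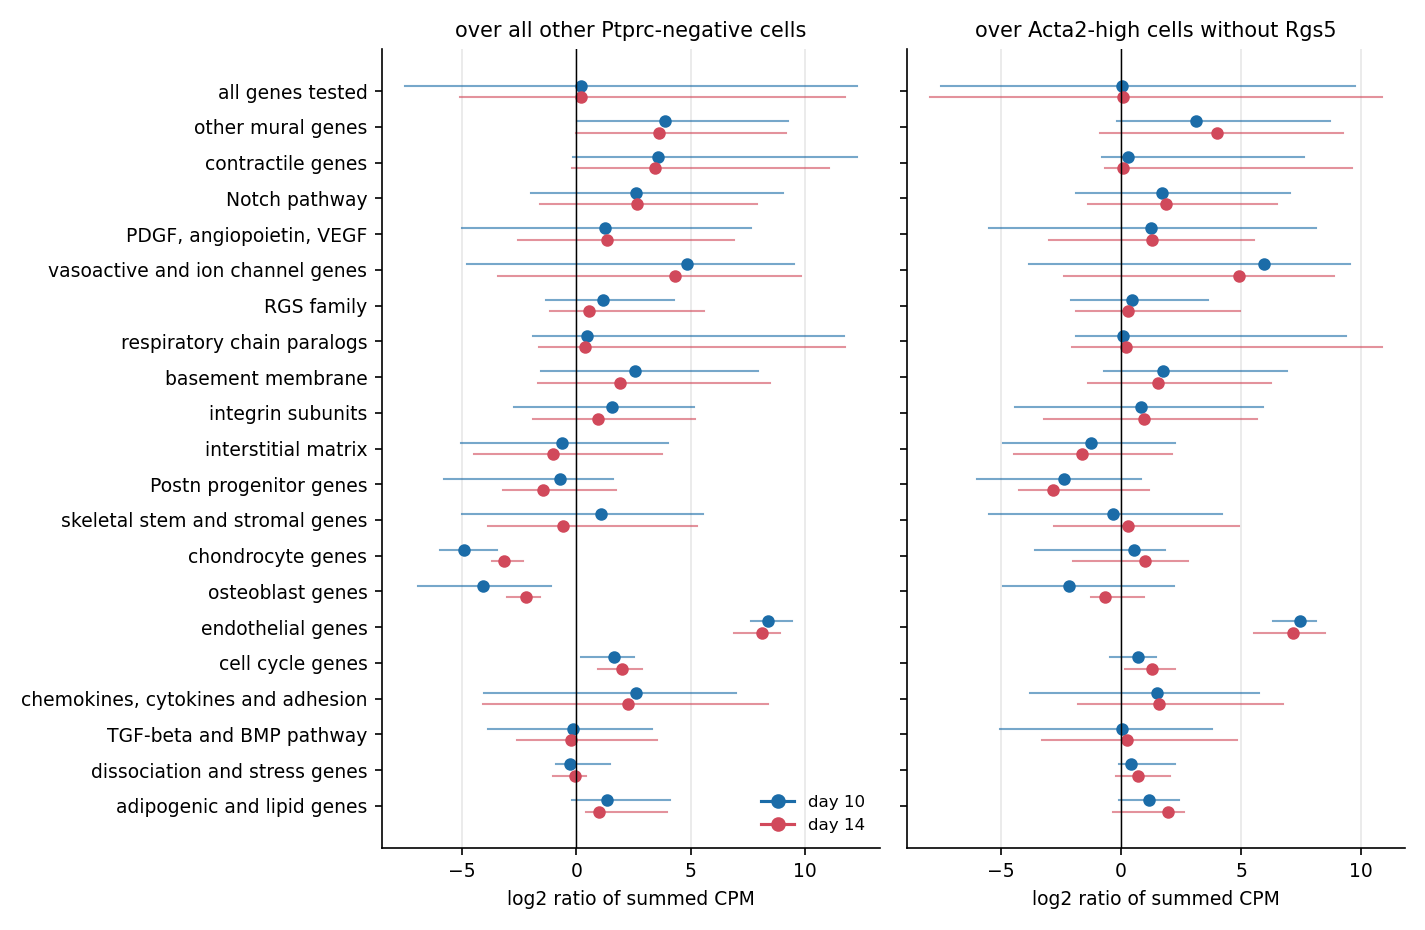
Median (point) and range (line) of the log2 ratios of the tested genes of each list in the Rgs5-selected cells, over all other *Ptprc*-negative cells on the left and over the Acta2-high cells without *Rgs5* on the right, with day 10 in blue and day 14 in red. The contractile list has medians of 3.58 and 3.42 on the left and 0.31 and 0.07 on the right, while vasoactive and mural genes stay above 3 in both.

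Contractile genes set the selected cells apart from most callus cells but only in part from the Acta2-high cells. Over the other cells 18 of 20 tested genes were called higher and none lower, with medians of 3.58 and 3.42. Over the Acta2-high cells 9 of 20 were, with medians of 0.31 and 0.07. *Acta2*, smooth muscle actin, stood at 4448 and 3960 CPM in the selection, at 3251 and 3372 in the Acta2-high cells, which were chosen on it, and at 252 and 221 in the others.

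The actin-binding gene *Tagln*, at 1959 and 2182 CPM, had log2 ratios over the Acta2-high cells of 0.04 (-0.03 to 0.12) and -0.01 (-0.06 to 0.04), and *Myl9* and *Tpm1* were also within 2-fold on both days. In contrast, the kinase gene *Mylk* (629 and 614 against 76.4 and 81.5), the intermediate filament gene *Des* (302 and 317 against 20.7 and 16.2) and *Lmod1* (85.2 and 55.9 against 12.4 and 5.25), an actin nucleator of muscle, were called higher. *Olfr558*, an olfactory receptor family gene counted on the contractile list, had 3 UMIs in all other cells at day 10. Its log2 ratio over the other cells was 12.26 (10.68 to 14.56) at day 10 and 11.06 at day 14. *Pln* had no UMI in the selection.

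Most tested basement membrane genes were high, while most interstitial matrix genes were not called. Of 24 listed basement membrane genes 14 were tested, of which 10 were called higher and 1, *Hspg2* (perlecan), lower. The type IV collagen chain *Col4a1* was at 5480 CPM (5331 to 5631) at day 10 and 4753 (4661 to 4846) at day 14, against 22.4 and 13.6 in the other cells and 45.8 and 61.9 in the Acta2-high cells. It was seen in 98.6% and 100% of the selected cells, and in 0% and 5.56% of the leukocytes. *Col4a2*, *Col18a1* and *Col15a1* had log2 ratios of 7.45 and 8.03, of 6.10 and 5.91, and of 5.01 and 4.10.

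Integrins, the receptors of these matrices, were split. Of 11 tested integrin subunits 5 were called higher, among them *Itga1* (833 and 679 CPM, log2 5.14 and 4.84) and *Itga7* (5.14 and 4.35), subunits that bind collagen IV and laminin, and 2 lower, the cartilage and fibroblast collagen receptors *Itga10* and *Itga11*. Of 22 interstitial matrix genes 3 were called higher (*Col5a3*, *Col6a3* and *Fbn1*), 6 lower and 13 neither, with medians of -0.62 and -1.03. Among the 13, the fibrillar collagen gene *Col3a1* was at 7225 and 5100 CPM against 6148 and 6265 in the other cells, and *Col1a1* at 7110 and 4673 against 12510 and 12662. The lowest of the list included the proteoglycan genes *Dcn* (-4.69 and -3.18) and *Lum* (-5.05 and -3.14), and *Mfap4*, with no UMI at day 10.

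The *Postn* progenitors of the callus periosteum were the population the study turned on. The genes listed for them here were mostly lower than in the Acta2-high cells but divided against the other cells. *Postn*, encoding periostin, was at 1663 and 863 CPM in the selected cells, 1341 and 1268 in the others and 4561 and 4150 in the Acta2-high cells. Over the other cells 1 of 9 list genes was called higher (*Prrx1*, 1.59 and 1.74), 4 were lower and 4 were neither. *Prrx1* is a gene that the paper names for another cluster, its *Ctsk* osteoprogenitors. Over the Acta2-high cells none was higher and 7 were lower, with medians of -2.36 and -2.84. The growth factor gene *Igf1* had log2 ratios over the other cells of -5.77 and -3.05 and *Ogn*, osteoglycin, -5.40 and -2.98.

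Markers of skeletal stem and stromal cells were mixed, with 6 of 14 tested genes called higher than in the other cells and 3 lower. Over the Acta2-high cells 5 of 14 were called higher and 4 lower. Over the Cxcl12-high cells 2 of 13 were called higher and 5 lower, with medians of -0.57 and -0.83. The ratios that follow are over the other cells unless another group is named. *Thy1* (CD90) was at 916 and 866 CPM against 19.9 and 26.9, and *Nes* (nestin) and *Kitl* (stem cell factor) had log2 ratios of 4.72 and 5.28, and of 3.23 and 3.71. *Nt5e* (CD73) was called lower, at -4.37 and -3.86. The leptin receptor gene *Lepr*, which marks perivascular reticular cells of marrow, had no UMI at day 10 and was at 1.86 CPM at day 14. In the Cxcl12-high cells *Lepr* was at 36.3 and 81.0, and *Higd1b* and *Kcnj8* had no UMI. Set against a limit of 3 counts there, *Higd1b* was at least 4.35 and 5.40 higher in the selection on the log2 scale and *Kcnj8* at least 2.85 and 4.55.

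Markers of the other cells of the callus gave the following levels. All 12 cartilage genes and all 11 tested bone genes were called lower, with and without the mixed cells. *Col2a1* was at 1218 and 1760 CPM (403 and 361 without the mixed cells) against 27919 and 15875. The leukocyte list summed to 25.6 and 29.8 CPM in the selection and to 30525 and 191297 in the leukocytes, and none of its 9 genes reached the level for a test. The Schwann list summed to 37.3 and 43.4 with 1 gene tested and none called, and the skeletal muscle list to 2.13 and 4.20 with none tested.

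Of the endothelial list, 3 of 10 genes were tested and called higher, *Emcn*, *Esam* and *Flt1*. The whole list summed to 6.76 and 8.16 CPM in the other cells. A member could thus be tested only by being high in the selection, and these 3 calls test nothing. The defining genes *Cdh5* and *Cldn5* had no UMI in the selection on either day, *Kdr* was at 0 and 0.466 CPM and *Pecam1* at 3.20 and 7.92. *Esam*, a junction adhesion gene, was seen in 60.6% and 68% of the selected cells and in none of the leukocytes, and *Emcn*, endomucin, in 31.0% and 23%.

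Chemokine and cytokine genes were a further group, with 8 of 13 tested called higher than in the other cells and 2 lower. Over the Acta2-high cells 7 of 12 were called higher and 2 lower, but over the Cxcl12-high cells 2 of 13 were higher and 5 lower, with medians of -0.33 and -0.61. The eotaxin gene *Ccl11* was at 36.2 and 55.0 CPM against 0.284 and 0.166, and *Il34*, a ligand of the CSF1 receptor, at 58.6 and 80.2 with log2 ratios of 5.49 and 5.37. *Ccl2* and *Il6* had 3.81 and 3.18, and 4.98 and 4.27. The osteoclast regulators *Tnfsf11* (RANKL, no UMI at day 10 and -1.58 at day 14) and *Tnfrsf11b* (its decoy receptor, -4.06, -6.33 to -2.51 from 3 UMIs, and -4.08) were the 2 called lower than in the other cells.

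Of 13 tested cell cycle genes 9 were called higher than in the other cells and none lower. Over the Acta2-high cells 5 of 14 were called higher and none lower. *Mki67* was at 89.5 and 59.2 CPM with log2 ratios of 2.54 and 2.88 over the other cells, and of 1.47 and 2.22 over the Acta2-high cells. Cells with UMIs of both *Mki67* and *Top2a* numbered 9 of 71 (12.7%, 5.96 to 22.7) and 17 of 200 (8.5%, 5.03 to 13.3), against 3.87% and 2.25% of the other cells. In the Acta2-high cells the share was 9.30% (6.05 to 13.5) and 2.81% (1.22 to 5.46). Among the cycling selected cells *Rgs5* stood at 11224 and 10395 CPM and *Myh11* was seen in 6 of 9 and 14 of 17. These cells were deeper, with a median of 17980 and 15377 UMIs against 12306 and 8741 in selected cells with neither gene.

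Among the remaining lists, the TGF-beta and BMP genes had 2 of 20 tested genes called higher, *Acvrl1* and *Id4*, and 5 lower, *Id1*, *Id2*, *Ltbp1*, *Inhba* and *Bambi*. Of 6 adipogenic genes 3 were called higher, *Cebpb*, *Lpl* and the fatty acid carrier *Fabp4*, although 1 cell held 57.5% of the *Fabp4* UMIs at day 10. None of 14 immediate early and heat shock genes, which dissociation can raise, was called in either direction over the other cells, and over the Acta2-high cells the 3 heat shock genes *Hspa1a*, *Hspa1b* and *Hspb1* were called higher (1.37 to 2.26).

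By the size of the lower of its 2 ratios, the leading genes outside the lists included *Trarg1*, a regulator of glucose transporter traffic (95.9 and 77.4 CPM, log2 8.75 and 8.65), *Slc16a12*, a monocarboxylate transporter family gene (8.34 and 8.34), and *Tspan15*, a tetraspanin (9.23 and 7.56). At the other end stood *Angptl1* (1.07 and 2.80 CPM against 32.1 and 67.3), *Crabp2*, a retinoic acid carrier (1.07 and 0.932 against 21.6 and 31.4), and *Nrn1* (1.07 and 2.33 against 36.4 and 43.4).

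Between the days, most genes of the selected cells kept within 2-fold. Of 7821 tested genes, 188 (2.4%) were at least 2-fold higher at day 14 and 181 (2.31%) at least 2-fold lower, with a median log2 ratio of 0.00 over all genes. None of the 4 markers was called. The log2 ratio of day 14 over day 10 was -0.46 (-0.65 to -0.26) for *Mcam*, -0.11 (-0.28 to 0.06) for *Higd1b*, 0.54 (0.27 to 0.81) for *Kcnj8* and 0.04 (-0.16 to 0.25) for *Abcc9*. None of 24 mural, 15 basement membrane, 12 respiratory chain or 14 stress genes was called, and among 22 contractile genes 1 was, *Sncg*, encoding gamma-synuclein (30.9 to 119 CPM, log2 1.94, 1.39 to 2.55). With 2.4% of all genes called higher and 2.31% lower, lists this short can lack a call without differing from the rest.

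Inflammatory signals were the group with the most genes lower at day 14. Of 11 tested chemokine and cytokine genes 5 were called lower and 1 higher. *Il6* stood at 100.2 CPM at day 10 and 21.9 at day 14, *Ccl7* at 116 and 29.4, *Cxcl1* at 377 and 97.4, *Ccl2* at 196 and 79.2, and *Csf1* at 74.6 and 29.4. Their log2 ratios were -2.19 (-2.73 to -1.67), -1.98, -1.95, -1.31 and -1.34. The same ratio in the other cells was -1.48 for *Il6*, -1.66 for *Ccl7*, -2.15 for *Cxcl1*, -0.67 for *Ccl2* and -0.04 for *Csf1*, so the first 3 were at least 2-fold lower in the other cells too. Without the cell that held most of its UMIs in each library, *Ccl2* was at -0.84 and *Csf1* at -0.72. *Cxcl12* was the 1 called higher, at 10.7 and 39.2 CPM (1.88, 0.93 to 2.99).

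**Figure D4:**
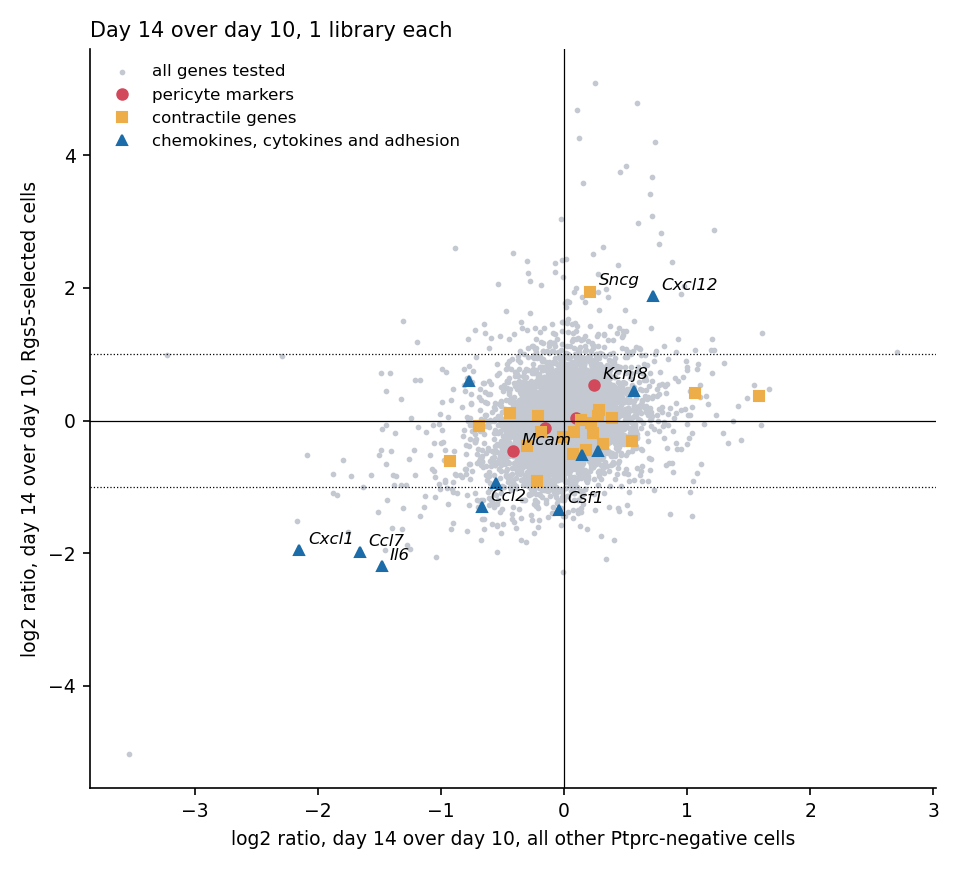
Log2 ratio of day 14 over day 10 for each of 7821 genes in the Rgs5-selected cells (vertical) against the same ratio in all other *Ptprc*-negative cells (horizontal), 1 library per day, with dotted lines at 2-fold. *Il6*, *Ccl7* and *Cxcl1* sit low in both groups, while the pericyte markers (circles) and all contractile genes (squares) but *Sncg* stay between the lines for the selected cells.

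In 3 vascular lists, all genes called between the days were lower at day 14. They were 3 of 22 tested vasoactive genes, 1 of 11 Notch genes and 1 of 12 genes of the PDGF, angiopoietin and VEGF pathways. Over all genes tested, 2.31% were called lower and 2.4% higher. The median log2 ratios of the 3 lists, in the same order, were 0.06, -0.25 and -0.23. The endothelin receptor *Ednrb* was at 115 CPM at day 10 and 41.0 at day 14 (log2 -1.49, -1.91 to -1.07), against -0.65 in the other cells, and was seen in 43.7% and 17% of the selected cells. The Notch target *Nrarp* was at 87.4 and 39.2 (-1.16, -1.61 to -0.70). *Kcnmb1* (-1.09) and *Pgf* (182 and 90.9 CPM) were also called lower. Further genes among the lowest 10 were *Ptprn* (90.6 and 22.8 CPM), *Isg15*, an interferon-induced gene (62.9 and 16.3), *Apold1* (149 and 42.9), the immediate early gene *Nr4a1* (295 and 91.8) and the heme oxygenase gene *Hmox1* (158 and 50.8). *Nr4a1* had -1.75 in the other cells too, where *Hmox1* had 0.19.

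Higher at day 14 were 2 of 9 *Postn* list genes, *Igf1* (5.33 to 56.9 CPM, log2 3.42, 2.15 to 5.06) and *Ogn* (14.9 to 80.6, log2 2.43), and 3 of 21 interstitial matrix genes, among them *Dcn* (79.9 to 290.4, log2 1.86). Of 11 cartilage genes 4 and of 8 bone genes 5 were called higher. Without the mixed cells 0 and 3 were. Among the 10 highest genes, *Bglap2* had 81.1% of its day 14 UMIs in 1 cell, 1 UMI at day 10, and its log2 ratio of 5.09 (2.57 to 10.41) was 1.12 without the mixed cells. The collagenase gene *Mmp13* was at 42.6 and 363 CPM, with 3.09 (2.63 to 3.59) in all selected cells, 2.56 without the mixed ones and 0.71 in the other cells.

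*Myh11* (chr16:14194535-14291372, minus strand, GRCm38), which separates smooth muscle cells from pericytes in most tissues, was seen in 43 of 71 selected cells (60.6%, 48.3 to 72.0) at day 10 and 123 of 200 (61.5%, 54.4 to 68.3) at day 14. It was seen in 0.2% and 0.211% of the other cells, in 1.16% and 1.05% of the Acta2-high cells, and in 0 of 4 and 1 of 108 leukocytes. Detection depended on depth, and after thinning to 3000 UMIs 31.9% and 39.1% of selected cells had a UMI. Cells with *Myh11* had a median of 13580 and 9580 UMIs and those without 12349 and 8715. Of the cells with *Myh11*, 13 and 31 had a single UMI and 13 and 32 had 5 or more. The selection thus held cells with and without a UMI of this smooth muscle gene.

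In the cells with *Myh11*, 45 of 7229 tested genes (0.622%) were called higher than in the other selected cells and 28 (0.387%) lower. These counts were 25 and 11 when the counting interval also had to exclude a ratio of 1, 10 and 2 among genes with at least 50 UMIs, and 213 and 44 after thinning to 3000 UMIs. Of 21 tested contractile genes 9 were among the higher (8 without the mixed cells) and none among the lower. Their median log2 ratios were 0.95 and 1.24, against 0.01 and 0.03 over all genes. *Acta2* was at 5460 against 2610 CPM at day 10 and 5424 against 1470 at day 14. *Tagln* was at 2652 against 702 and at 3062 against 686. *Cnn1*, calponin, was at 85.9 against no UMI and at 73.3 against 16.4, and *Actg2*, enteric actin, had log2 ratios of 1.59 and 2.14. *Tpm1*, *Lmod1*, *Synpo2*, *Olfr558* and *Casq2* were the other 5 called, of which *Olfr558* is an olfactory receptor family gene counted on this list.

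None of the 4 pericyte markers was called, with log2 ratios of 0.48 and 0.75 for *Mcam*, 0.04 and 0.81 for *Higd1b*, -0.41 and -0.08 for *Kcnj8*, and 0.31 and -0.22 for *Abcc9*. None of 24 mural, 22 vasoactive, 15 basement membrane or 11 Notch genes was called either. Of all tested genes 0.622% were called higher and 0.387% lower, so lists this short can lack a call without differing from the rest. *Rgs5*, which chose the cells, was at 10210 against 8968 CPM at day 10 and 12089 against 8058 at day 14. *Des* had log2 ratios of -0.27 and 0.55.

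**Figure D5:**
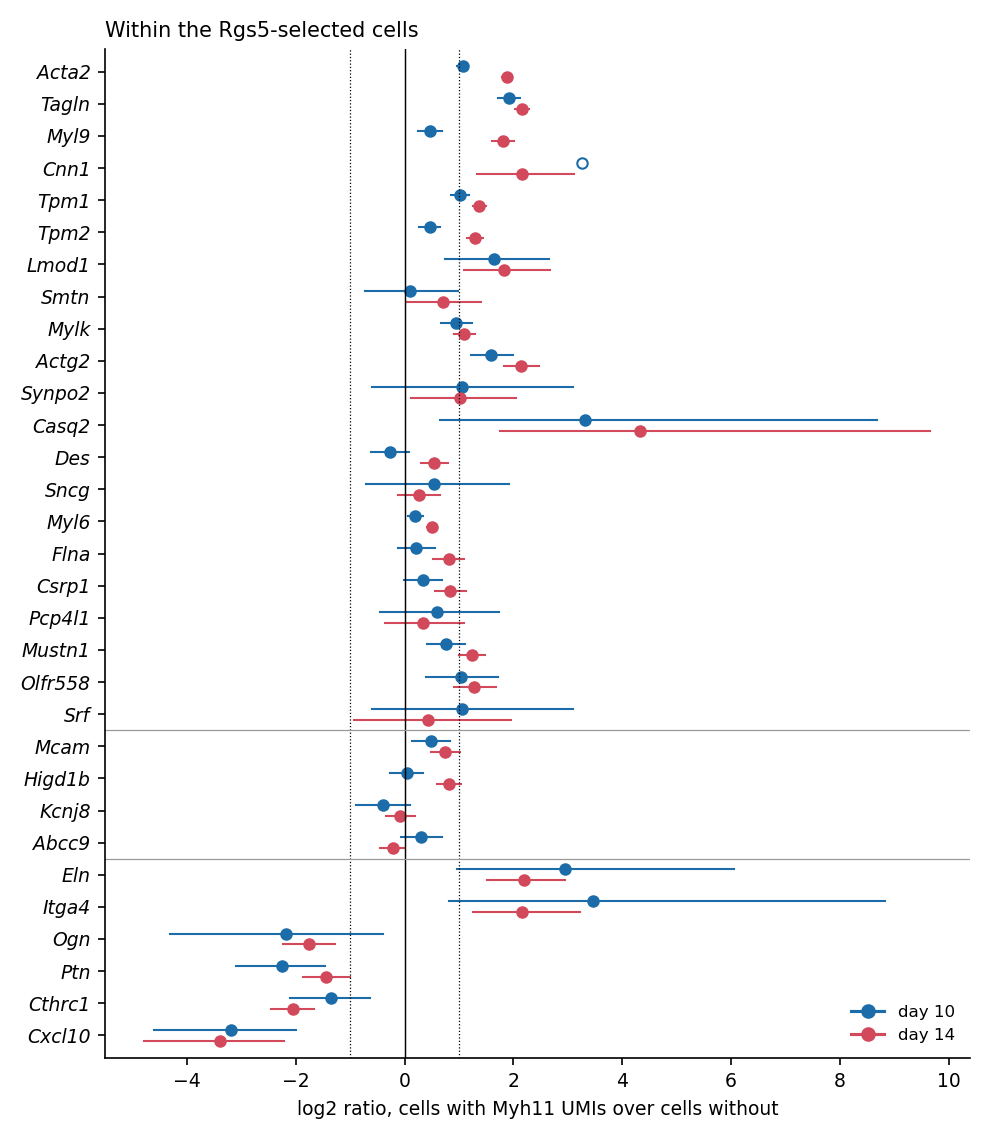
Log2 ratio of summed CPM in selected cells with *Myh11* UMIs over selected cells without, for 21 contractile genes (top), the 4 pericyte markers (middle) and 6 further called genes (bottom), with day 10 in blue, day 14 in red, lines for exact 95% intervals, an open circle for a lower bound and dotted lines at 2-fold. *Acta2*, *Tagln*, *Cnn1* and *Actg2* lie right of the 2-fold line on both days and the pericyte markers lie between the lines.

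Outside the contractile list, *Eln*, elastin, was at 46.3 against 6.00 CPM at day 10 (2 UMIs without *Myh11*, log2 2.95, 0.96 to 6.06) and 115 against 25.2 at day 14 (2.20, 1.52 to 2.95). The integrin gene *Itga4* had log2 ratios of 3.46 (0.82 to 8.83) and 2.17 (1.26 to 3.22), and *Myom1*, a sarcomere M-band gene, 1.95 and 1.94. Lower in the cells with *Myh11* were the *Postn* list genes *Ogn* (-2.18 and -1.75), *Ptn* (-2.26 and -1.44) and *Cthrc1* (-1.36 and -2.06), 3 of 8 tested.

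The interferon-induced chemokine gene *Cxcl10* was at 11.6 against 105 CPM at day 10 and 5.18 against 54.1 at day 14 (log2 -3.18, -4.60 to -1.99, and -3.38, -4.78 to -2.22). *Cxcl9* had -1.86 and -4.09, the latter -0.87 without the mixed cells. *Cxcl9* is not on the chemokine and cytokine list, of whose 11 tested genes *Cxcl10* was the 1 called.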

How the data were processed

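The authors deposited raw UMI counts per gene and cell as 10x matrices of 32285 genes, 1 library per day. Per the labels they used a 3' v2 kit and Cell Ranger 3.0 on mm10. The file header and the study's methods name other versions. Counts were summed over cells with Python 3.11.15, numpy 2.4.6, scipy 1.17.1 and pandas 2.3.3.

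The members and the 24 gene lists were chosen with earlier results of these data known. Levels are CPM, the UMIs of a gene per 1000000 UMIs of the group (938590 and 2145126 UMIs in the selected cells at day 10 and 14, 112619373 and 150318305 in the others) with exact Poisson 95% intervals, ratios have exact binomial intervals and shares Clopper-Pearson intervals. A ratio was tested against the 2-fold limit where the mean of the 2 groups reached 10 CPM, in each library for comparisons made in both. A group at 0 was set to 3 counts and its ratio taken as a bound. *Rgs5* and *Ptprc*, and *Myh11* where it made the groups, were left out of the counts. Thinning drew 3000 UMIs per cell without replacement (seed 1). The ratio and call code was tested on simulated counts.

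Named genes were list genes and, by ratio, the 20 highest and 10 lowest over the other cells and the 10 highest and lowest between days (at least 50 UMIs) and for *Myh11*. Gene positions are from GENCODE M21, where 32158 of the 32285 identifiers were found, as were all 411 list and named genes. Some items are not reported here. No doublet caller was run, since the upper gene limit and the removal of deep or mixed cells served as alternatives. The labels do not say whether cells of a day came from 1 or several animals, so intervals cover counting error only.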

Additional observations from a re-analysis of the deposited data

Results flagged for a closer look

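Among list genes, these 11 had log2 ratios of opposite sign and at least 1 in size on the 2 days when selected cells with *Myh11* were set against those without. With 1 library per day, the difference between the days was not tested.

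*Cxcl1*, a neutrophil chemokine gene, had -3.10 at day 10 (62 UMIs with *Myh11*, 292 without) and 1.27 at day 14 (168 and 41). Without the cell that held most of its UMIs the ratios were -2.72 and 1.41, and without the mixed cells -3.04 and 1.21. The replication gene *Rrm2* had -1.86 and 2.60 from 15 and 34 UMIs.

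The cartilage genes *Col2a1* (1.96 and -1.14), *Snorc* (1.97 and -2.19), *Col11a1* (1.18 and -1.05) and *Sox9* (1.88 and -1.10), and 4 bone genes, *Ibsp* (1.38 and -2.89), *Alpl* (1.14 and -1.41), *Smpd3* (3.14 and -1.11) and *Dmp1* (1.01 and -1.46), were higher in cells with *Myh11* at day 10 and lower at day 14. Without the mixed cells *Col2a1* was at 0.03 and -0.43 and *Ibsp* at -0.03 and -0.02. *Sox9* was then at 1.90 and -3.13. The elastic fibre gene *Mfap5* had at least 1.25 at day 10 (13 UMIs against none) and -3.51 at day 14.

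At day 14, 8 cells reached the *Rgs5* limit and held a *Ptprc* UMI. They were left out by the rule, and at day 10 there were 0.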

How the results depend on the processing

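No paired analysis was possible because each day is 1 library. Over 20 alternatives, 121 of 164 values stayed within the counting error or within 1.5 times of the count, 43 moved and 0 reversed. The shares, calls and marker ratios rest on 271 cells and 1 library per day. Depth limits the detection of *Myh11*, whose share fell to 31.9% and 39.1% after thinning to 3000 UMIs and was 42.3% and 46.0% with at least 2 *Myh11* UMIs.

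With an *Rgs5* limit of 10 per 10000 the median marker ratio at day 14 was 9.55, and with other cells lacking any *Rgs5* UMI 9.72. With a limit of 50 it was 8.41, the share of selected cells at day 14 1.73% and the share with *Myh11* 70.1%. Counts of called genes depended on the cutoffs. Selected over other cells, 396 were higher and 277 lower with a filter of 30 CPM, 1424 and 801 with a fold limit of 1.5, and 1771 higher with no filter. Between the days, the counts higher and lower were 49 and 61 with the stricter filter, 915 and 1055 with none, 694 and 681 at 1.5-fold and 680 and 643 after thinning. For *Myh11* they were 15 and 4, 112 and 91, 200 and 136, and 213 and 44 in the same order, and 69 and 57 with at least 2 *Myh11* UMIs. With the mean over cells 54 were lower for *Myh11*.

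The following alternatives were chosen after seeing the data. Without the cell with the most UMIs of each gene, 326 genes were higher between the days, and 87 were higher and 18 lower for *Myh11*. With intervals that also exclude a ratio of 1 the *Myh11* counts were 25 and 11. Among genes with at least 50 UMIs, 93 were lower between the days, and 10 were higher and 2 lower for *Myh11*. Leaving out the mixed cells kept all these counts within 1.5 times, and 144 of the 188 genes higher between the days and 151 of the 181 lower stayed at least 2-fold.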
